A study of Caenorhabditis elegans with 18 samples.

Results

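The vitellogenin genes are the 6 genes *vit-1* (WBGene00006925), *vit-2* (WBGene00006926), *vit-3* (WBGene00006927), *vit-4* (WBGene00006928), *vit-5* (WBGene00006929) and *vit-6* (WBGene00006930) of *Caenorhabditis elegans*. They were taken by identifier from a table of 24998 genes, and all 6 were found there. Their mRNA was measured by mRNA-Seq in whole day 1 adult hermaphrodites of 6 genotypes, with 3 biological replicate libraries each and 18 in all. The genotypes were wild-type (strain N2), *fbxl-5(rhd43)* (DLS316), *lin-29(n333)* (MT333), *rict-1(mg360)* (DLS490), and the double mutants *lin-29(n333); fbxl-5(rhd43)* (DLS492) and *rict-1(mg360); fbxl-5(rhd43)* (DLS491). All animals were synchronized as larvae and fed *E. coli* OP50 at 20°C for about 72 h, at 5000 animals per plate. Each genotype is represented by 1 strain, so a genotype and other differences of its strain cannot be told apart. Every library holds the RNA of all tissues, so fewer cells of a type and less RNA per cell cannot be told apart either.

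Vitellogenins are the precursors of yolk lipoproteins. In the adult hermaphrodite the intestine makes them and secretes them into the body cavity, and growing oocytes take them up through the receptor RME-2. LIN-29 is a zinc finger transcription factor at the end of the heterochronic pathway, which times the change from larva to adult, mainly in the hypodermis. RICT-1 is the *C. elegans* Rictor protein, the defining subunit of the TORC2 kinase complex, and SGK-1 is a kinase downstream of it. FBXL-5 has an F-box, a domain found in proteins that bring substrates to ubiquitin ligases, and leucine-rich repeats. The study asked how loss of *fbxl-5* bears on the low vitellogenin expression that it reports for *lin-29* and *rict-1* mutants. In *rict-1* mutants its measure of this was a GFP reporter driven by the *vit-3* promoter.

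In the WBcel235 annotation, 5 of the 6 genes lie on chromosome X and *vit-6* lies alone on chromosome IV, from 8261157 to 8266459 on the plus strand. *vit-1* (X, 7727889 to 7733168) and *vit-2* (X, 5101042 to 5106169) are on the plus strand and have 5 exons each. In both, exon 2 is 285 bases and exon 4 is 247 bases long, and exon 3 is 3186 bases in *vit-1* and 3180 in *vit-2*. *vit-3* (X, 3567355 to 3572549) and *vit-4* (X, 3558769 to 3563965) are neighbours on the minus strand with 3389 bases between them. *vit-5* (X, 3403471 to 3408603) is on the plus strand, 150165 bases from *vit-4*. These 3 genes have 6 exons each, and exons 2 to 5 have the same lengths in all of them, 285, 3038, 229 and 136 bases. *vit-6* has 2 annotated transcripts and 5 exons, and its exon 3, of 3948 bases, matches no other exon of the family in length. The summed exon length is 4870 to 5088 bases over the 6 genes. Only 1 gene of the table overlaps a member: C42D8.9 shares 11 bases with *vit-2* on the other strand and had at most 4.68 normalized counts in any library. Reads were 50 bases long. A read from a stretch shared by *vit-1* and *vit-2*, or by members of the other exon group, may have been dropped or assigned to the wrong gene, which was not tested. Levels of single genes within these groups are uncertain for that reason. The sum of a group would be free of wrong assignment within it, but dropped reads would be missing from it too. The ranks and shares per kilobase given below carry the same uncertainty.

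The libraries held 13434120 to 29733059 reads counted on genes, and the vitellogenin genes alone took 392 reads in the lowest case (*vit-4* in *lin-29* replicate 3) and 1441632 in the highest (*vit-6* in *rict-1* replicate 2). Counting error was therefore small beside the spread between replicates. Ribosomal RNA set 1 library apart, *fbxl-5* replicate 3, where it made up 29.98% of all reads, and the other 17 libraries had at most 4.49%. The transcripts of the mutated genes do not check the labels, since none of the alleles was described as removing the mRNA. Mean normalized counts were 102 for *lin-29* in wild-type and 171 in its mutant, 94.9 and 139 for *fbxl-5*, and 3005 and 2643 for *rict-1*. Levels below are normalized counts, which are reads divided by a size factor per library. Where genes are compared with each other, the normalized count was divided by exon length in kilobases. Differences are log2 fold changes of the normalized count plus 1 from limma, fitted to all 18 libraries and 13472 genes, and a gene is said to have risen or fallen where its Benjamini-Hochberg adjusted p was under 0.01.

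In wild-type animals *vit-6* was the most abundant of all 24861 genes ranked by level per kilobase. *vit-2* ranked 3, *vit-5* ranked 15, and *vit-1*, *vit-3* and *vit-4* ranked 127, 151 and 190. The level per kilobase of *vit-6* was 13.2 times that of *vit-4*. Together the 6 genes took 8.84% ± 0.605 of the reads outside ribosomal RNA (SD, n = 3). Counted per kilobase, *vit-6* made up 41.6 ± 1.37% of this vitellogenin mRNA pool (SD, n = 3 here and for the other shares). The share of *vit-2* was 31.2 ± 0.628% and that of *vit-5* was 14.5 ± 0.425%. The other 3 genes were minor components, with 5.34 ± 0.160% for *vit-1*, 4.23 ± 0.318% for *vit-3* and 3.15 ± 0.113% for *vit-4*. *vit-1*, *vit-3* and *vit-4* together held 12.7% of the wild-type pool, and *vit-2* and *vit-6* together held 72.7%.

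**Figure D1:**
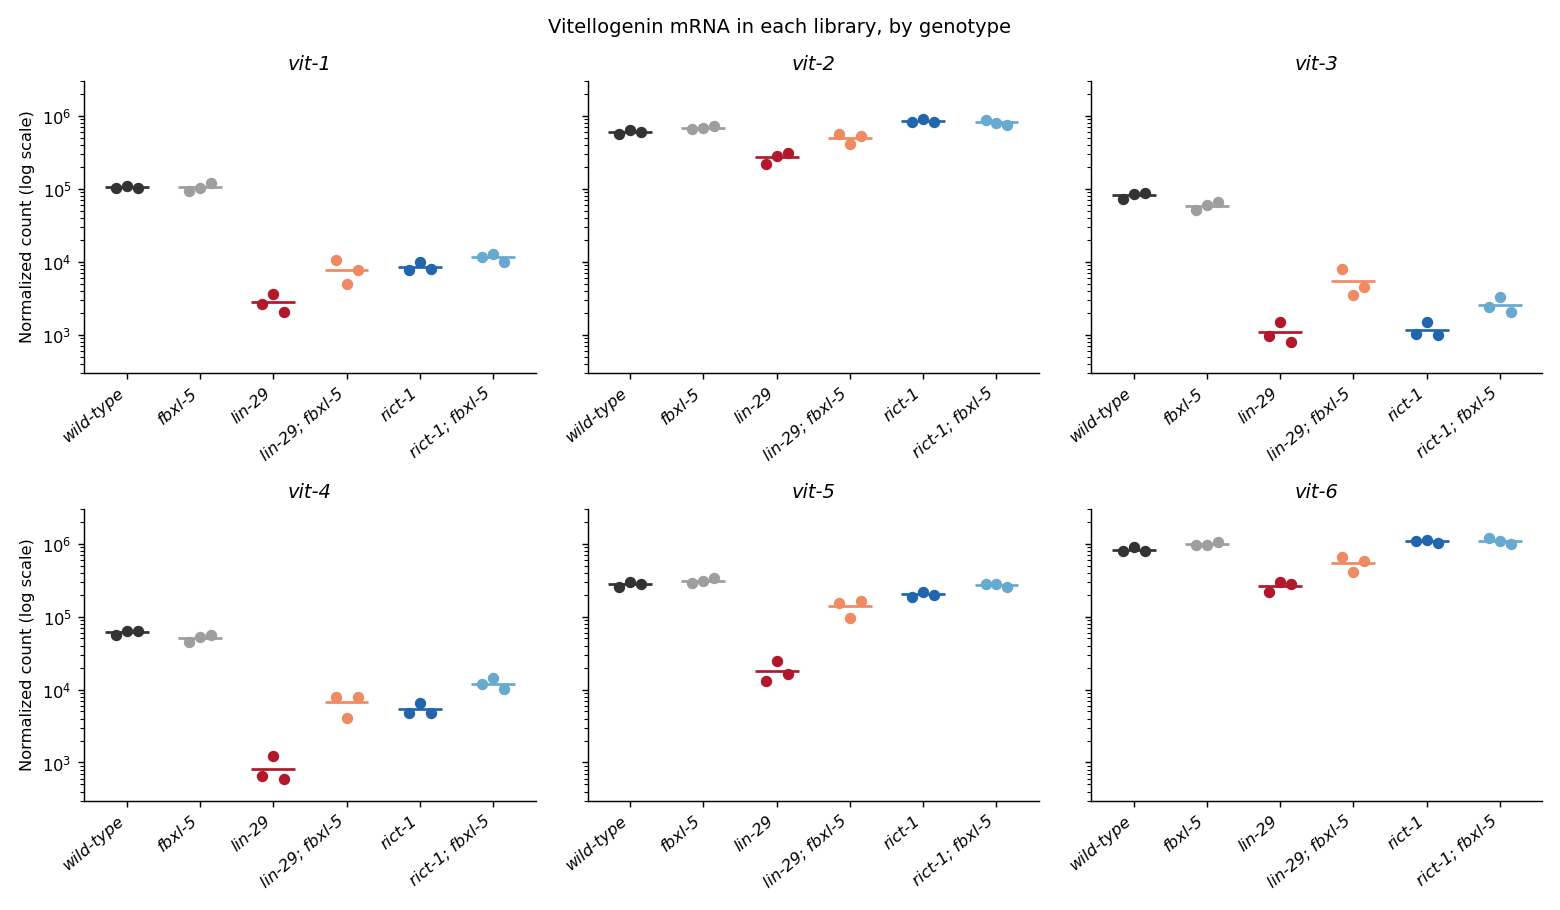
Normalized count of each *vit* gene in each library, on a log scale, by genotype. Each point is 1 library and each line the mean of 3. All 6 genes are low in *lin-29*, while in *rict-1* only *vit-1*, *vit-3* and *vit-4* are far below wild-type, as *vit-3* at 1173 against 81385.

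All 6 vitellogenin genes fell in *lin-29* against wild-type, by 2.23-fold for *vit-2* to 75.3-fold for *vit-3* in the ratio of means. Over all genes tested, 18.4% were called lower in this comparison. Normalized counts of *vit-3* were 72375, 84502 and 87278 for wild-type replicates 1 to 3 and 968, 1482 and 793 for *lin-29*. *vit-4* was 55689, 64314 and 62507 in wild-type and 661, 1214 and 589.8 in *lin-29*. *vit-1* was 103858, 110534 and 103885 in wild-type and 2681, 3638 and 2054 in *lin-29*. In these 3 genes every *lin-29* library was at or below 3.43% of the wild-type mean. The log2 fold changes were -6.28 (SE 0.28, adjusted p = 2.60e-10) for *vit-3*, -6.28 (SE 0.27, adjusted p = 1.49e-10) for *vit-4* and -5.29 (SE 0.23, adjusted p = 9.32e-11) for *vit-1* (limma, Benjamini-Hochberg).

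*vit-5* stood between these genes and the 2 most abundant ones. It was 254424, 293975 and 282053 in wild-type and 13051, 24532 and 16341 in *lin-29*, a log2 fold change of -3.99 (SE 0.20, adjusted p = 3.36e-10, limma). *vit-6* was 794211, 891741 and 783017 in wild-type and 214410.4, 301532 and 279064 in *lin-29*. *vit-2* was 563399, 630970.1 and 608213 in wild-type and 218637, 283497 and 305088 in *lin-29*. The libraries of both genotypes did not overlap for either gene, and the mean was still 32.2% of wild-type for *vit-6* and 44.8% for *vit-2*. Their log2 fold changes were -1.65 (SE 0.17, adjusted p = 5.99e-07) and -1.17 (SE 0.14, adjusted p = 4.51e-06), both from limma. All 6 genes were called lower under each alternative tried and with any 1 library left out.

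In *rict-1* the family parted. *vit-1*, *vit-3* and *vit-4* fell against wild-type, by 12.5-fold, 69.4-fold and 11.4-fold in the ratio of means, which is 3 of the 6 genes beside 5.78% of all genes called lower. *vit-2* and *vit-6*, the most abundant genes, had means above wild-type, at 141% and 129.9% of it, and did not pass the test. *vit-5* had 72.4% of the wild-type mean and did not pass the test either. The *rict-1* and *lin-29* comparisons share the wild-type libraries.

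*vit-3* was 1019.5, 1495 and 1003 in the 3 *rict-1* libraries, at most 1.84% of the wild-type mean. *vit-1* was 7622, 9992 and 7915 and *vit-4* was 4831, 6459 and 4728. *vit-1* and *vit-4* thus kept about the same small part of their wild-type level, 8.02% and 8.78%. The log2 fold changes were -6.14 (SE 0.28, adjusted p = 2.46e-09) for *vit-3*, -3.65 (SE 0.23, adjusted p = 1.67e-08) for *vit-1* and -3.52 (SE 0.27, adjusted p = 2.03e-07) for *vit-4* (limma). These calls held under each alternative and with any 1 library left out.

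*vit-2* was 835699.6, 900383 and 812471 in *rict-1*, and all 3 libraries lay above the highest wild-type library. The log2 fold change was 0.50 (SE 0.14, adjusted p = 0.0150, limma). It passed the threshold with no filter on low counts, with TMM scaling, with library totals outside ribosomal RNA and *vit* genes as the scale, with only the 2 genotypes in the fit, with DESeq2, with edgeR, and without replicate 1 or 3 of *lin-29* or replicate 1 or 2 of *lin-29; fbxl-5*. Over all alternatives its adjusted p ran from 0.000747 to 0.0629. *vit-6* was 1078452, 1121829 and 1006886, also with no overlap, at a log2 fold change of 0.38 (SE 0.17, adjusted p = 0.0967, limma). *vit-5* was 184041, 219451 and 197676, with all 3 libraries below the lowest wild-type library, at a log2 fold change of -0.47 (SE 0.20, adjusted p = 0.0899, limma). *vit-5* is therefore the 1 gene of its group of like exon lengths that was not called in *rict-1* in the main fit. In the pair of *vit-1* and *vit-2*, *vit-2* is that gene. Both still lay outside the wild-type libraries, at 72.4% of the wild-type mean for *vit-5* and 141% for *vit-2*.

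**Figure D2:**
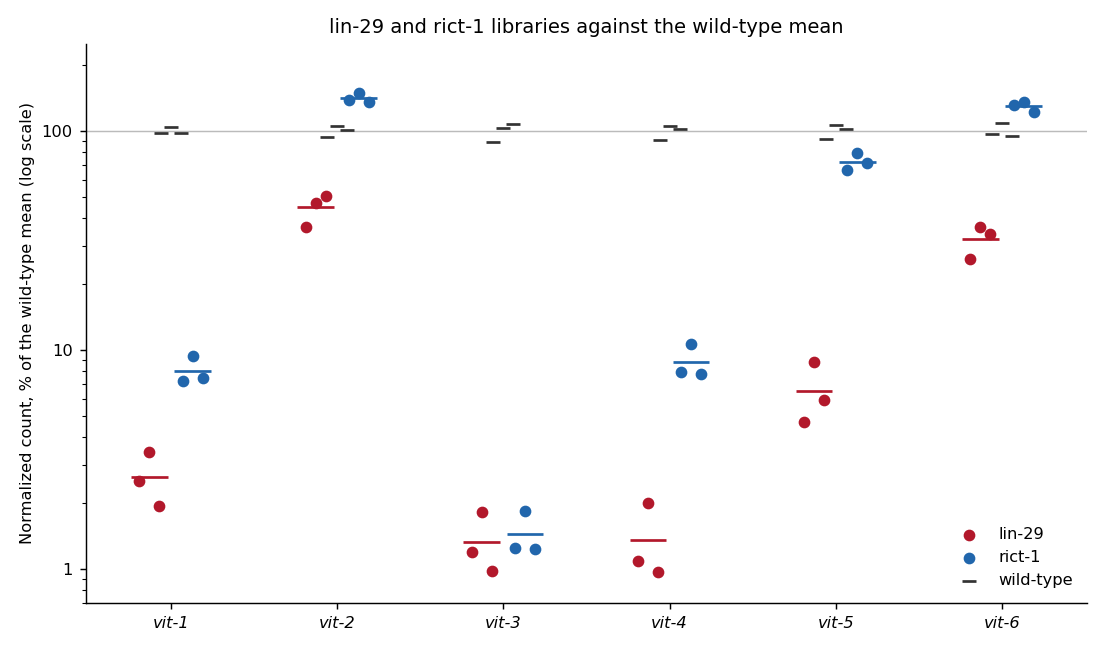
Normalized count of each *vit* gene in the *lin-29* and *rict-1* libraries, as a percentage of the wild-type mean on a log scale. Points are libraries, lines the means of 3, dashes the wild-type libraries. Both mutants are near 1% for *vit-3*, and they lie apart for the other genes, most for *vit-5* at 6.49% and 72.4%.

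Set directly against *lin-29*, *rict-1* had more mRNA of 5 of the 6 genes, where 14.4% of all genes were called higher. The gap was widest for *vit-5*, with 11.1 times the *lin-29* mean and a log2 difference of 3.53 (SE 0.20, adjusted p = 2.22e-09, limma). *vit-4* was 6.50 times, *vit-6* 4.03 times, *vit-2* 3.16 times and *vit-1* 3.05 times as high in *rict-1* as in *lin-29*. *vit-3* was the exception, at 1.08 times the *lin-29* mean with overlapping libraries and a log2 difference of 0.14 (SE 0.28, adjusted p = 0.706, limma). The sign of this difference turned to -0.06 without *lin-29* replicate 3 and to -0.05 without *rict-1* replicate 2. *vit-3* and its neighbour *vit-4*, which had fallen by the same amount in *lin-29*, were thus unequal in *rict-1*.

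The 2 mutants differed in the size of the pool and were alike in its lack of *vit-1*, *vit-3* and *vit-4*. The pool was 2.25, 3.14 and 2.88% of the reads outside ribosomal RNA in the *lin-29* libraries and 9.28, 10.6 and 9.14% in the *rict-1* libraries, against 8.16, 9.31 and 9.06% in wild-type. *lin-29* did not overlap wild-type, and *rict-1* did. The exact two-sided permutation test gave p = 0.1 for *lin-29*, the smallest that 3 against 3 libraries allow, and p = 0.3 for *rict-1* (0.16 and 0.343 after Benjamini-Hochberg adjustment over the 8 pool comparisons made). In *lin-29* the shares of the pool per kilobase were 48.9 ± 2.26% for *vit-2*, 46.9 ± 1.37% for *vit-6* and 3.28 ± 0.707% for *vit-5* (SD, n = 3). In *rict-1* they were 49.4 ± 0.844% for *vit-6*, 40.3 ± 0.211% for *vit-2* and 9.62 ± 0.594% for *vit-5* (SD, n = 3). *vit-2* and *vit-6* together thus made up 72.7% of the pool in wild-type, 95.9% in *lin-29* and 89.7% in *rict-1*. *vit-1*, *vit-3* and *vit-4* together held 0.847% ± 0.246 in *lin-29* and 0.698% ± 0.0818 in *rict-1* (SD, n = 3), ranges that overlap. The smallest single share was that of *vit-3* in *rict-1*, 0.0554 ± 0.0101% (SD, n = 3). These shares describe a split of the family that was known when the genes were grouped, so no test is given for it. The span of levels per kilobase within the family was 887-fold in *rict-1*, from *vit-6* to *vit-3*, and 328-fold in *lin-29*, from *vit-2* to *vit-4*.

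**Figure D3:**
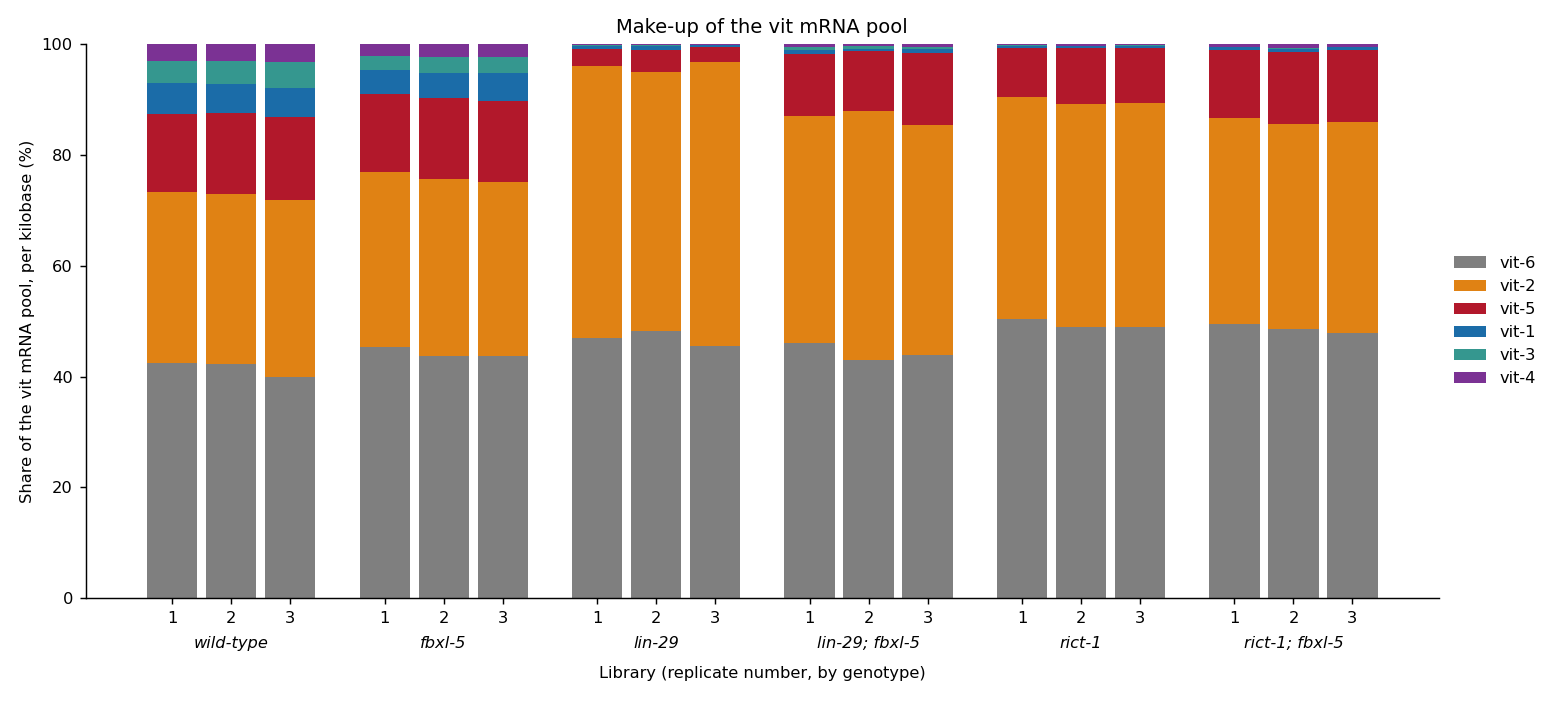
Share of each *vit* gene in the vitellogenin mRNA pool, per kilobase of exon, as stacked bars that sum to 100% in each of the 18 libraries. *vit-1*, *vit-3* and *vit-4* together hold 12.7% on average in wild-type, 0.847% in *lin-29* and 0.698% in *rict-1*, and *vit-5* holds 3.28% in *lin-29* and 9.62% in *rict-1*.

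Markers of the tissue that makes vitellogenin rose in *rict-1* and were mixed in *lin-29*. Of 8 intestine markers, 6 rose in *rict-1*, where 10.7% of all genes were called higher. Their median log2 fold change was 0.97, against -0.03 over all genes, and their summed normalized count was 183548 to 217716 there and 56560 to 69453 in wild-type. In *lin-29* 3 of 8 rose and 0 fell, beside 22.6% of all genes called higher (median 0.45, against -0.01 over all genes). The sum was 55976 to 74336 there and overlapped wild-type. *pept-1* was lower, at 1227 to 1972 in *lin-29* and 2395 to 2570 in wild-type, and *asp-1* and *act-5* had means slightly below wild-type. None of the 8 markers was at 0 in any library. The aspartic protease gene *asp-1* carried most of the sum, with a log2 fold change of 1.93 in *rict-1* (adjusted p = 7.61e-05, limma), and *elt-2*, which encodes the GATA factor of the intestine, had 0.86 (adjusted p = 0.000512, limma). Relative to the mean log2 level of these 8 markers, a scale chosen after seeing the data, *vit-2* and *vit-6* in *rict-1* lay below wild-type by log2 differences of -0.44 and -0.56. On that scale *vit-5* was at -1.41, *vit-4* at -4.46, *vit-1* at -4.59 and *vit-3* at -7.08. This scale moves every *vit* gene by the same amount, so it bears on the direction for *vit-2* and *vit-6* and not on the gaps between *vit* genes.

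Markers of other tissues moved in *lin-29*. All 3 body muscle markers and 3 of 4 sperm markers rose there, 3 of 8 oocyte and germline markers fell, and of 5 hypodermis markers *dpy-7*, *rol-6* and *col-10* rose while the adult collagen gene *col-19* fell. Over all genes 22.6% were called higher and 18.4% lower in this comparison. The summed counts in wild-type and *lin-29* were 20068 to 33792 and 39909 to 77484 for body muscle, 102 to 109.9 and 179.7 to 313 for sperm, 175329 to 232344 and 140267 to 156082 for oocyte and germline, and 12673 to 18200 and 6158 to 10597 for hypodermis. *col-19* carried most of the hypodermis sum in wild-type, with a mean of 15665 in a mean sum of 15753. It had a mean of 613 in *lin-29*, where *col-10* (5330) and *rol-6* (2452) carried most of the sum. The lower hypodermis sum therefore reflects *col-19* and not the list as a whole. In *rict-1* no muscle, sperm or germline marker was called and *dpy-7* alone of the hypodermis markers rose. *rol-6* was at 0 in *rict-1* replicate 1, and no other marker was at 0 in any library. The part of these tissues in the vitellogenin differences was not tested.

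Loss of *fbxl-5* alone did not bring any vitellogenin gene past the threshold. In *fbxl-5* against wild-type 0 of the 6 genes were called by limma, beside 2.56% of all genes, and 0 had an unadjusted p under 0.05, beside 24.1% of all genes. *vit-3* was 52021, 59508 and 65400.4, with all 3 libraries below the lowest wild-type one, at a log2 fold change of -0.47 (SE 0.28, adjusted p = 0.332, limma). It was called lower when only these 2 genotypes were fitted (adjusted p = 0.00297, limma). DESeq2 and edgeR on recovered reads called 0 of the 6, and so did limma without *fbxl-5* replicate 3, the library rich in ribosomal RNA. *vit-2* was 659308, 688642 and 727859.7 and *vit-6* was 969227, 970285 and 1037670.1, above the wild-type libraries, with log2 fold changes of 0.20 and 0.27 (adjusted p = 0.421 and 0.346, limma). *vit-1*, *vit-4* and *vit-5* overlapped wild-type. The pool took 9.51% ± 0.515 of the reads outside ribosomal RNA (SD, n = 3), and the exact permutation test against wild-type gave p = 0.3. Per kilobase, *vit-1*, *vit-3* and *vit-4* together held 8.97 to 10.3% of the pool in *fbxl-5*, against 12.5 to 13.1% in wild-type. *vit-2* and *vit-6* together held 75.2 to 76.9%, against 71.9 to 73.3%. The difference in these shares was not tested.

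In the *lin-29* background the same mutation went with higher levels of all 6 genes, where 1.32% of all genes were called higher. The comparison called 178 genes higher and 606 lower, and 276 and 502 with library totals outside ribosomal RNA and *vit* genes as the scale. *vit-4* was 7949.8, 4021 and 8017 in the 3 *lin-29; fbxl-5* libraries, 8.11 times the *lin-29* mean. *vit-5* was 153225, 96881 and 163958, or 7.68 times. *vit-3* was 8061, 3562 and 4538, or 4.98 times. Replicate 2 was the lowest of the 3 double mutant libraries for each of the 6 genes, and it still lay above every *lin-29* library. Replicate 3 differed from the others in some tissue markers. *col-19* was 11397 there, against 386 and 1749 in replicates 1 and 2, and 12596 to 18154 in wild-type. *asp-1* was 66062, against 30409 and 20766. *dpy-7*, *rol-6* and *col-10* of replicate 3 were 495, 660 and 2710, still above every wild-type library. With any 1 library left out, all 6 vitellogenin genes were called higher. The log2 fold changes were 3.03 (SE 0.27, adjusted p = 2.07e-06), 2.95 (SE 0.20, adjusted p = 9.02e-08) and 2.28 (SE 0.28, adjusted p = 4.89e-05) for *vit-4*, *vit-5* and *vit-3* (limma).

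The other 3 genes moved less. *vit-1* was 10473, 4955 and 7783, *vit-2* was 568939, 411900.2 and 527905 and *vit-6* was 656783, 402913 and 571652, which is 2.77, 1.87 and 2.05 times the *lin-29* mean. Their log2 fold changes were 1.44, 0.90 and 1.02 (adjusted p = 0.000441, 0.000420 and 0.000508, limma). These calls rested on the spread shared by all 6 genotypes. With only the 6 libraries of *lin-29* and *lin-29; fbxl-5* in the fit, 2 genes were called (*vit-4* and *vit-5*), where 64 of 13776 genes were called in all. With the replicate number as a block as well, 0 of the 13776 genes were called, the *vit* genes among them, and the fold changes were the same. As a part of the level lost in *lin-29*, the double mutant made up 70.5% for *vit-2*, 49.96% for *vit-6* and 46.4% for *vit-5*, and 9.73, 5.36 and 4.79% for *vit-4*, *vit-3* and *vit-1*. The genes with a large fold were therefore not those that came closest to wild-type, and *vit-5* alone had both. Of the 8 intestine markers 4 fell in the double mutant against *lin-29* and none rose, beside 4.5% of all genes called lower and 1.32% higher, with sums of 32677 to 82333 against 55976 to 74336, and their part in the result was not tested.

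**Figure D4:**
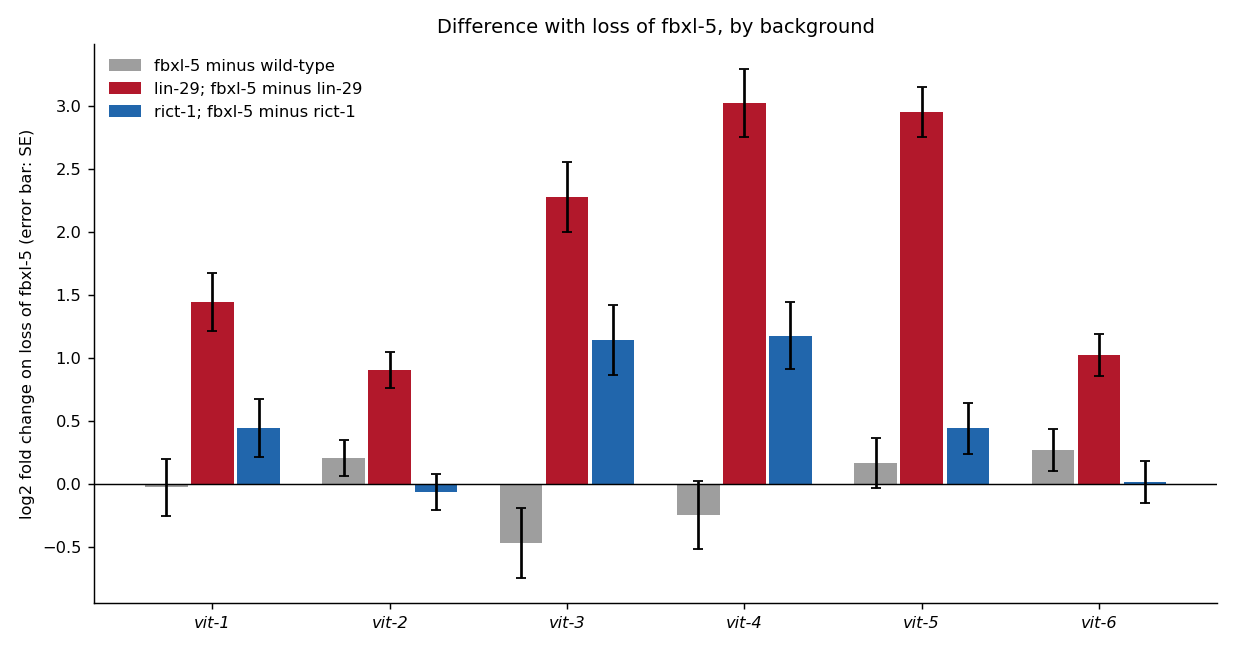
log2 fold change of each *vit* gene with loss of *fbxl-5* in the wild-type, *lin-29* and *rict-1* backgrounds. Bars are limma estimates with their standard errors. In *lin-29* all 6 bars are positive, from 0.90 to 3.03, and in *rict-1* those of *vit-3* and *vit-4* are 1.14 and 1.18.

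In the *rict-1* background 0 of the 6 genes passed the threshold with limma, beside 1.39% of all genes called, and 3 had an unadjusted p under 0.05, beside 12.6% of all genes. *vit-4* was 11853, 14279.9 and 10096 in the *rict-1; fbxl-5* libraries, 2.26 times the *rict-1* mean. *vit-3* was 2427, 3322 and 2049, or 2.22 times. For both genes every double mutant library lay above every *rict-1* library. The log2 fold changes were 1.18 (SE 0.27, adjusted p = 0.0225) and 1.14 (SE 0.28, adjusted p = 0.0322, limma). Both were called higher when only these 2 genotypes were fitted and with DESeq2, and edgeR called 0 of the 6. With only these libraries and the replicate number as a block, *vit-1*, *vit-3* and *vit-4* were called higher, with adjusted p-values of 0.00299, 5.64e-08 and 2.25e-07 (limma). Leaving out *lin-29* replicate 2, or replicate 1 or 2 of *lin-29; fbxl-5*, none of which belongs to the comparison, changed the count from 0 to 1.

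The remaining 4 genes stayed closer to *rict-1*. *vit-5* was 281476, 275742 and 257167, 1.35 times the *rict-1* mean and not overlapping it, at a log2 fold change of 0.44 (SE 0.20, adjusted p = 0.366, limma). *vit-1* was 11783, 12963 and 9919 and overlapped *rict-1*. *vit-2* was 874903, 800707 and 758457 and *vit-6* was 1187922, 1073551 and 983996, with log2 fold changes of -0.07 and 0.01 (adjusted p = 0.970 and 0.995, limma). Both overlapped *rict-1*, so *vit-2* and *vit-6*, whose means in *rict-1* were above wild-type, showed no difference beyond the spread. The pool was 10.1% ± 0.476 of the reads outside ribosomal RNA, against 9.68% ± 0.819 in *rict-1* (SD, n = 3 each, exact permutation p = 0.5).

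The difference between backgrounds was tested as an interaction. Against its effect in wild-type, loss of *fbxl-5* in *lin-29* had a higher effect on 3 of the 6 genes, *vit-3*, *vit-4* and *vit-5*, where 0.713% of all genes were called higher. The differences of the log2 fold changes were 3.27 (SE 0.38, adjusted p = 0.000119) for *vit-4*, 2.79 (SE 0.28, adjusted p = 2.30e-05) for *vit-5* and 2.74 (SE 0.39, adjusted p = 0.000739) for *vit-3* (limma). *vit-1* had 1.47 (adjusted p = 0.0118), *vit-6* 0.75 (adjusted p = 0.0666) and *vit-2* 0.70 (adjusted p = 0.0477, limma). DESeq2 called all 6. *vit-1* was also called without replicate 2 of *lin-29* (adjusted p = 0.00531) or of *lin-29; fbxl-5* (adjusted p = 0.00163, limma). The genes with a called interaction are the 3 that share exon lengths, and *vit-1* and *vit-2* are not among them in the limma fit. The interaction was called positive for 96 genes and negative for 227, and 139 and 140.0 with library totals outside ribosomal RNA and *vit* genes as the scale.

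In *rict-1* the interaction was called for 0 of the 6 genes by limma, beside 0.854% of all genes, and 2 had an unadjusted p under 0.05, beside 17.4% of all genes. These were *vit-3* with 1.61 (SE 0.39, adjusted p = 0.0326) and *vit-4* with 1.43 (SE 0.38, adjusted p = 0.0488, limma). DESeq2 called both, edgeR called neither, and both were called with only the 4 genotypes concerned in the fit. Without *lin-29; fbxl-5* replicate 1, which is outside this comparison, *vit-3* was called. The genes called over the table were 85 higher and 30 lower, and 80 and 14 on the scale of library totals outside ribosomal RNA and *vit* genes, where the median over all genes also moved from 0.01 to 0.11.

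Neither double mutant reached the wild-type levels of *vit-1*, *vit-3* and *vit-4*. In *lin-29; fbxl-5* 5 of the 6 genes were lower than in wild-type, beside 19.5% of all genes. Its means were 6.62, 7.29 and 10.95% of wild-type for *vit-3*, *vit-1* and *vit-4*, 49.9% for *vit-5* and 66.1% for *vit-6*. *vit-2* was the gene not called, at 83.7% and a log2 fold change of -0.27 (adjusted p = 0.126, limma). The call of *vit-6* (log2 fold change -0.62, adjusted p = 0.00482, limma) was lost without any 1 of the wild-type replicates or without replicate 2 of the double mutant (adjusted p = 0.0102 to 0.0353), and with only these 2 genotypes in the fit (0.0484). In *rict-1; fbxl-5* *vit-1*, *vit-3* and *vit-4* were lower than in wild-type, beside 3.56% of all genes, at 10.9, 3.19 and 19.9% of its mean. *vit-5* was at 98.1%, *vit-2* at 135% and *vit-6* at 131%, none of them called in the main limma fit. DESeq2 called *vit-2* higher. With only these libraries and the replicate number as a block, limma called both *vit-2* and *vit-6* higher. The pool was 5.88% ± 1.10 of the reads outside ribosomal RNA in *lin-29; fbxl-5* and 10.1% ± 0.476 in *rict-1; fbxl-5* (SD, n = 3 each), against 8.84% in wild-type. Neither overlapped wild-type, and the exact permutation p was 0.1 for each, the smallest possible.

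The order of the 6 genotypes therefore differed from gene to gene. By mean normalized count, *vit-2* ran from *rict-1* through *rict-1; fbxl-5*, *fbxl-5*, wild-type and *lin-29; fbxl-5* to *lin-29*. Neighbours with overlapping libraries were *rict-1* and *rict-1; fbxl-5*, and wild-type and *lin-29; fbxl-5*. *vit-6* had the same order except that *rict-1; fbxl-5* came first, and its overlapping neighbours were *rict-1; fbxl-5*, *rict-1* and *fbxl-5*. *vit-5* was highest in *fbxl-5*, followed by wild-type and *rict-1; fbxl-5*, neighbours that overlapped, and then by *rict-1*, *lin-29; fbxl-5* and *lin-29*, which did not. *vit-1* ran from wild-type and *fbxl-5*, which overlapped, to *rict-1; fbxl-5*, *rict-1* and *lin-29; fbxl-5*, each overlapping its neighbour, and then to *lin-29*. *vit-4* ran from wild-type and *fbxl-5*, which overlapped, to *rict-1; fbxl-5*, then to *lin-29; fbxl-5* and *rict-1*, which overlapped, and to *lin-29*. *vit-3* ran from wild-type through *fbxl-5*, *lin-29; fbxl-5* and *rict-1; fbxl-5* to *rict-1* and *lin-29*, and only the last 2 overlapped. *lin-29* was thus the lowest genotype for each of the 6 genes, within the spread of *rict-1* for *vit-3*. Within a genotype the genes tended to be high or low in the same library: *fbxl-5* replicate 3 and *rict-1* replicate 2 were the highest of 3 for each of the 6 genes, and *fbxl-5* replicate 1, *lin-29; fbxl-5* replicate 2 and *rict-1; fbxl-5* replicate 3 the lowest. The coefficient of variation over 3 libraries was 3.63 to 9.74% in wild-type and up to 43.9% in *lin-29; fbxl-5*.

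Ratios between genes of the same library leave out such differences between libraries. *vit-2* and *vit-6*, on different chromosomes, stayed within a narrow span of each other. The log2 ratio of *vit-2* to *vit-6* per kilobase was -0.42 in wild-type, -0.29 in *rict-1* and 0.06 in *lin-29*, and single libraries ran from -0.52 to 0.17, with the *lin-29* libraries above those of wild-type. *vit-1* to *vit-2* went from -2.55 in wild-type to -6.66 in *lin-29* and -6.69 in *rict-1*, which did not differ beyond their spread. *vit-2* to *vit-5* was 1.10 in wild-type, 3.92 in *lin-29* and 2.07 in *rict-1*. With loss of *fbxl-5* it was 1.87 in the *lin-29* background and 1.56 in the *rict-1* background, in both cases nearer to wild-type than in the single mutant.

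*vit-3* to *vit-4*, the neighbouring pair, set *rict-1* apart from every genotype without the *rict-1* mutation. This ratio was picked out after its values were seen, and it is described with no test. Per kilobase it was 0.42 ± 0.06 on the log2 scale in wild-type and 0.43 ± 0.13 in *lin-29* (SD, n = 3), a ratio of 1.34 in both. In *rict-1* it was -2.19 ± 0.07 and in *rict-1; fbxl-5* -2.23 ± 0.11 (SD, n = 3), which is a ratio of 0.219 and 0.214. The libraries of these 2 genotypes ran from -2.30 to -2.10 and lay below every other library. *fbxl-5* had 0.20 ± 0.02, and *lin-29; fbxl-5* had -0.32 ± 0.44 with libraries from -0.82 to 0.02 (SD, n = 3). The ratio in *rict-1* thus did not move beyond its spread with the *fbxl-5* mutation, although the means of both genes were higher in the double mutant (2.22 and 2.26 times).

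**Figure D5:**
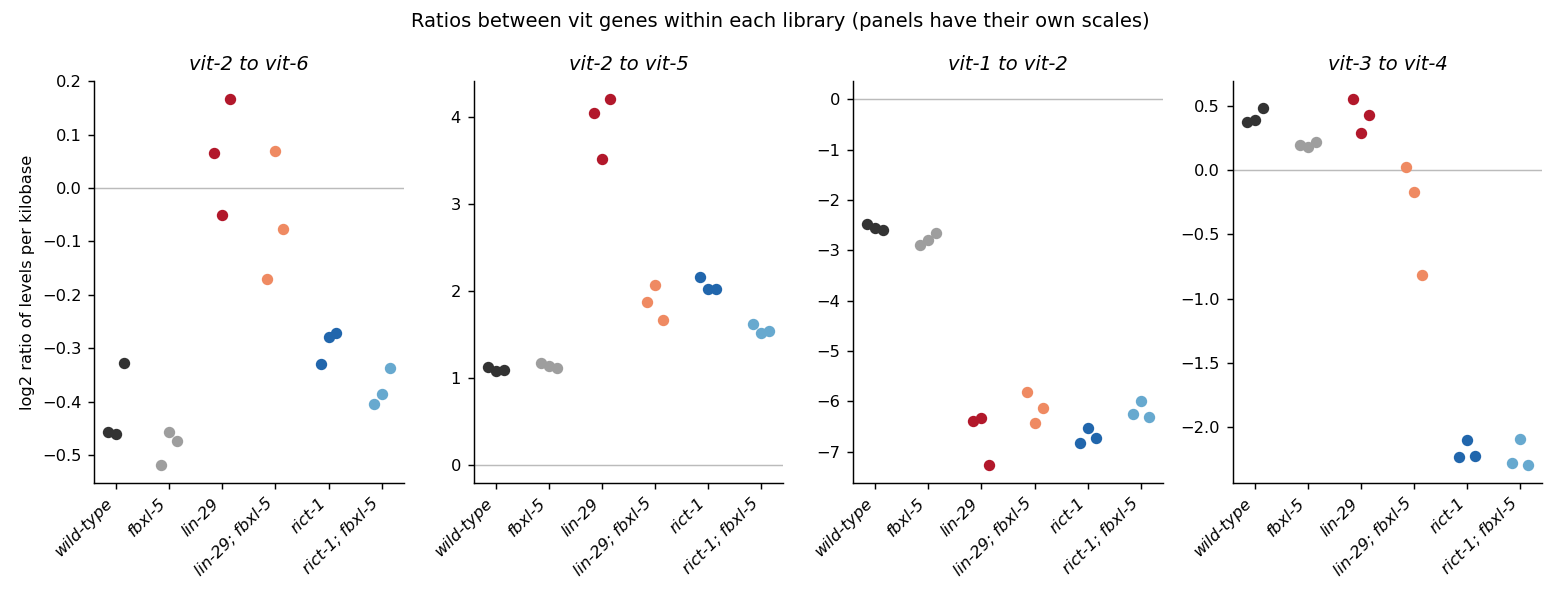
log2 ratio of levels per kilobase between pairs of *vit* genes in each library, by genotype, with a scale of its own in each panel. The *vit-3* to *vit-4* ratio lies at 0.42 in wild-type, 0.43 in *lin-29*, -2.19 in *rict-1* and -2.23 in *rict-1; fbxl-5* on average.

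Of 15 genes with known roles in the production or uptake of yolk, 5 rose and 2 fell in *lin-29*, where 22.6% of all genes were called higher and 18.4% lower. Their median log2 fold change was 0.34, against -0.01 over all genes. *pqm-1*, a zinc finger transcription factor, rose by 2.42 and the kinase gene *sgk-1* by 1.00 (adjusted p = 1.13e-08 and 1.42e-06, limma). *sma-3*, a Smad of the DBL-1 pathway, had 0.81 (adjusted p = 0.000700), the ligand gene *dbl-1* 0.62 (adjusted p = 0.00938) and the homeodomain gene *unc-62* 0.34 (adjusted p = 0.00591, limma). The yolk receptor gene *rme-2*, expressed in oocytes, fell by 0.68 on the log2 scale (adjusted p = 0.000839, limma) and the kinase gene *akt-1* fell by 0.27 (adjusted p = 0.00709, limma). The calls of *dbl-1*, *unc-62* and *akt-1* were lost under several alternatives, with adjusted p-values up to 0.0573, 0.0324 and 0.0425, and that of *sma-3* with only the 2 genotypes in the fit (up to 0.0210, limma). Of the 18 fits with 1 library left out, 14 lost the call of *dbl-1*, 7 that of *akt-1* and 4 that of *unc-62*.

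In *rict-1* 6 of the 15 rose and 1 fell, beside 10.7% of all genes called higher and 5.78% lower (median 0.48, against -0.03 over all genes). Those that rose included *pqm-1* with 1.68 (adjusted p = 2.31e-06), *dsc-4*, which encodes the microsomal triglyceride transfer protein that loads lipoproteins, with 1.12 (adjusted p = 7.56e-06), *sgk-1* with 0.89 (adjusted p = 1.51e-05) and *elt-2* with 0.86 (limma). The homeodomain genes *unc-62* and *ceh-60*, whose products activate *vit* transcription in the intestine, had 0.70 (adjusted p = 3.84e-05) and 0.68 (adjusted p = 0.00353, limma). *akt-1* fell by 0.33 on the log2 scale (adjusted p = 0.00391, limma). *rme-2* had -0.35 (adjusted p = 0.0778, limma) and was not called. The calls of *akt-1* and *ceh-60* were lost without replicate 1 or 2 of wild-type or replicate 2 or 3 of *rict-1*, among other settings, with adjusted p-values up to 0.0328 and 0.0194 (limma). In *fbxl-5* none of the 15 was called. *elt-2* and *rme-2* also stand in the marker lists.

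The correlation of the log2 levels of the *vit* genes across the 18 libraries is given as a description, over libraries that cluster by genotype. Pearson's r was 0.99 between *vit-2* and *vit-6*, 0.96 between *vit-1* and *vit-4*, 0.95 between *vit-1* and *vit-3* and 0.89 between *vit-3* and *vit-4*. It was lowest between *vit-2* and *vit-3*, at 0.24, and between *vit-3* and *vit-6*, at 0.36. Other pairs lay between, at 0.48 for *vit-1* and *vit-2*, 0.60 for *vit-1* and *vit-6*, 0.64 for *vit-2* and *vit-4* and 0.73 for *vit-4* and *vit-6*. The values thus ran in a gradient and did not part the genes into separate groups. *vit-5* lay with *vit-6* (0.94) and *vit-2* (0.91), and with *vit-4* at 0.88, rather than with *vit-3* (0.58), although *vit-3* and *vit-5* are of 1 exon group. Among 8981 other genes with a mean of at least 100 normalized counts, the 3 with the highest r to each *vit* gene had r from 0.92 to 0.96. *clec-91*, a C-type lectin domain gene, came first for both *vit-2* and *vit-6*, with means of 4951 in wild-type, 2980.0 in *lin-29* and 5869 in *rict-1*. R04D3.2 came next for both, and *dod-23* and F22E5.17 were the third of *vit-2* and *vit-6*. *dod-23* spanned a wide range, from 659.8 in *lin-29* to 4341 in *rict-1*. The genes most like the others were F55G1.6, *rpt-4* and WBGene00010781 for *vit-1*, *otub-1*, *ahsa-1* and F54D5.7 for *vit-3*, *cyb-2.1*, *fem-3* and B0250.5 for *vit-4*, and *ari-1.2*, C27D8.4 and *mtp-18* for *vit-5*. They shared the shape of the pattern but not its size: *cyb-2.1* had means of 2894 in wild-type and 1838 in *lin-29*, where *vit-4* had 60837 and 822. For *vit-1* F55G1.6 had 1557 and 1043 in the same genotypes.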

How the data were processed

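mRNA-Seq libraries were made by the submitters from polyA RNA of whole animals (TruSeq v2, single-end reads) and sequenced without molecular identifiers, so counting precision covers counting error only. The authors counted reads per gene on the WS260 genome and deposited a signal, the count divided by a DESeq2 size factor for each library. The submitters' processing notes name STAR, featureCounts, Subread and DESeq2, with versions and counting options for multi-mapping reads not given in the sources used here. All 24998 rows name a gene. Deposited values divided by the worth of 1 read gave whole numbers for 100% of entries (relative tolerance 1e-06), so whole reads were recovered, 13434120 to 29733059 per library. Deposited tables of the authors' own comparisons hold fold changes and p-values and were not used.

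Libraries were grouped by genotype from the labels. log2(normalized count + 1) was fitted with limma 3.58.1 (trend, robust, R 4.3.3) with 1 mean per genotype over 18 libraries, for 13472 genes with a mean of at least 10, with Benjamini-Hochberg adjustment over all of them and a threshold of 0.01. A fold change on this scale is slightly understated for low genes. The limma fit was tested on simulated counts with known changes in *lin-29* only and a spread that did not differ between genotypes. The other steps were not tested in this way. Vitellogenin pool shares were compared with exact two-sided permutation tests (scipy 1.17.1). Alternatives were pseudocounts of 0.1 and 10, other filters and scalings, only the compared genotypes, the replicate number as a block, DESeq2 1.42.0 and edgeR 4.0.16 on recovered reads, and each library left out. A scale of 8 intestine markers was added after seeing the data. The replicate number paired samples most clearly for *rict-1; fbxl-5* and *rict-1*, by the values and not by the labels. Deviations from the group means of their same-numbered libraries correlated at 0.65, 0.39 and 0.24. For *lin-29; fbxl-5* and wild-type the values were lower, 0.23, 0.10 and 0.15. For *fbxl-5* and wild-type they were 0.06, 0.07 and 0.12, and the other comparisons had mixed signs. The labels call the replicates biological without naming separate cultures, so p-values measure the spread between these samples. Genes were named as the 6 members, the fixed lists of yolk pathway genes and markers, and the 3 genes most like each member. The members and lists were chosen with earlier results of these data known. No sequence is printed, and coordinates are from the WBcel235 annotation, which was used for positions and exon lengths only.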

Additional observations from a re-analysis of the deposited data

Results flagged for a closer look

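For 3 vitellogenin genes the effect of *fbxl-5* loss differed between the *lin-29* and wild-type backgrounds by an interaction test (limma, Benjamini-Hochberg over 13472 genes). *vit-4* had the widest difference of log2 fold changes, 3.27, with an adjusted p of 0.000119 in limma. *vit-5* followed at 2.79, with an adjusted p of 2.30e-05, and the difference of *vit-3* was 2.74, with an adjusted p of 0.000739 (limma). In each case the 3 *lin-29; fbxl-5* libraries all lay above the 3 *lin-29* libraries, as *vit-5* at 96881 or more against 24532 or less.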

How the results depend on the processing

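Of the fold changes of single *vit* genes under other settings, 1677 stayed on their side of the threshold with their sign, 37 newly passed it, 17 no longer passed it and 9 changed sign. Many of these settings could not change the sign. Leaving out a library outside the comparison, or adding the replicate block, leaves a limma fold change as it was and bears on its adjusted p only. With only the compared genotypes in the fit, the number of the 6 genes called was 1 for *fbxl-5* against wild-type in place of 0, 2 for *lin-29; fbxl-5* against *lin-29* in place of 6, 2 for *rict-1; fbxl-5* against *rict-1* in place of 0 and 2 for the *rict-1* interaction in place of 0. With the replicate block added to that fit, the numbers were 1, 0 (of 0 over all 13776 genes), 3 and 2, and 5 for *rict-1; fbxl-5* against wild-type in place of 3. The interaction of *vit-3* in *lin-29* was not called there (adjusted p = 0.0114, limma). The replicate block over all 18 libraries changed no call count. DESeq2 called 2 genes for *rict-1; fbxl-5* against *rict-1*, 6 for the *lin-29* interaction and 2 for the *rict-1* interaction. With each library left out in turn, 0 to 1 genes were called for *rict-1; fbxl-5* against *rict-1* and 0 to 1 for the *rict-1* interaction. The fold changes that changed sign were small. Leaving out 1 library at a time, *vit-1* in *fbxl-5* against wild-type ran from -0.12 to 0.062, *vit-6* in *rict-1; fbxl-5* against *rict-1* from -0.055 to 0.081, *vit-5* in *rict-1; fbxl-5* against wild-type from -0.086 to 0.018, and *vit-3* in *rict-1* against *lin-29* from -0.057 to 0.39. *vit-5* in *rict-1; fbxl-5* against wild-type was 0.023 with library totals outside ribosomal RNA and *vit* genes as the scale. Against 8 intestine markers, a scale added after seeing the data, *vit-2* and *vit-6* in *rict-1* against wild-type were -0.44 and -0.56. With all reads as the total, the pool in *fbxl-5* was 8.46% in place of 9.51%, since 1 of its libraries held 29.98% ribosomal RNA. Other causes were not tested. With 3 libraries a group, an exact permutation test cannot go below 0.1, and the fits over 18 libraries assume a shared spread, although the *lin-29* genotypes varied more.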
